A study of Homo sapiens with 4 samples.

Results

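The 9 genes described here are NQO1, GCLC, GCLM, TXNRD1, SRXN1, HMOX1, SLC7A11, ME1 and AKR1C1, textbook targets of the transcription factor NRF2. They were listed by name and make up 9 of 19821 protein-coding genes on the autosomes and X. For each gene, the length covered by peaks was measured in the gene record and the 10 kb on either side (hg38). The study profiled SK-Hep1 cells, labelled as a human liver adenocarcinoma line, by chromatin immunoprecipitation and sequencing. H3K27ac, the acetylation of histone H3 found at promoters and enhancers in use, was measured with a control shRNA (shCon) and with an shRNA against SMARCB1 (shSMARCB1), both in infected cells selected for the shRNA with puromycin. SMARCB1 itself, which belongs to the core of the SWI/SNF (BAF) remodellers that slide and evict nucleosomes, was profiled in a further library whose labels name no shRNA. Each group held 1 library, so the values below compare libraries, without replicates and without a test.

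NRF2, encoded by NFE2L2, is held low in unstressed cells by KEAP1, which hands it to a CUL3 ubiquitin ligase. When oxidants or electrophiles modify KEAP1, NRF2 accumulates, pairs with a small MAF protein and binds antioxidant response elements near genes for glutathione synthesis, thioredoxin recycling, NADPH supply and detoxification. BACH1 competes for the same elements, with HMOX1 as its best known target. Liver cells use this programme against reactive drug metabolites, and liver tumours often keep it switched on through mutations of the pathway.

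The control H3K27ac library held 13235203 tags and the knockdown library 10203310, a ratio of 1.3. Peaks covered 79.5 and 70.9 Mb, and the SMARCB1 list held 4453 peaks. Across the 14767 protein-coding genes with H3K27ac in both windows, the median log2 ratio of covered length, knockdown over control, was −0.17. The difference in depth moved in the same direction, and its part in any shortening below was not tested. Among hepatocyte genes, ALB, APOA1, TTR and HNF4A had no H3K27ac within 10 kb in either library, and FOXA2 had it in the knockdown only. VIM, an intermediate filament gene of mesenchymal cells, had 13020 bp with shCon and 10875 bp with shSMARCB1. SERPINA1, a protease inhibitor made by hepatocytes, had 5012 and 5461 bp, and TF, transferrin, 3499 and 2816 bp, both marked at a start in both libraries. The liver genes of a line labelled hepatic were thus marked in part. All 5 mesenchymal and all 5 epithelial genes had some cover in at least 1 library, as had 3 of 5 endothelial genes. Over all protein-coding genes, 22.2% had none in either library. A start was marked in both libraries for 4 mesenchymal and 3 epithelial genes, and for no endothelial gene in either. The endothelial gene PECAM1 (900 bp) was covered in the knockdown only, and the epithelial gene EPCAM (501 bp) in the control only.

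Promoter sequences are shown first because the members differ there in sequence, in acetylation and in SMARCB1 peaks. RefSeq (GRCh38.p14) gave windows from 250 bases before to 50 after a start for 7 of the 9 genes, with 2 starts for TXNRD1. HMOX1 and SLC7A11 had no entry. The search covered both strands for the core of the antioxidant response element, TGACNNNGC, the AP-1 site, TGANTCA, and the GC box, GGGCGG. An AP-1 site can overlap the element core, as it did in ME1. The element core was found for 3 of the 7 genes, GCLM, TXNRD1 (at both starts) and ME1, and in 13.8% of 22132 windows of protein-coding genes. Here and below the members are counted by gene, over 8 windows, and the percentages by window, so the measures differ. The AP-1 site was found for ME1 alone (6.15% of all windows) and the GC box for 4 genes, NQO1, GCLM, TXNRD1 and ME1 (56.3%). A match describes letters in this window and is no measured site. Sequence outside these windows, such as under the upstream peaks of NQO1 and GCLC, was not read. A gene without a match here may thus have an element elsewhere.

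The lines below are written 5′ to 3′ on the gene's strand, with the element core in capitals. Those of GCLM, GCLC, NQO1 and AKR1C1 run over the 250 bases that end at the base before the start. Of the genes with a window, GCLM (chr1:93909431-93909680, minus strand) and GCLC (chr6:53545102-53545351, minus strand) had a SMARCB1 peak in it. That peak lay on the last 187 bases in GCLM and the last 121 in GCLC. NQO1 (chr16:69726561-69726810, minus strand) and AKR1C1 (chr10:4963165-4963414, plus strand) are the promoters without a control H3K27ac peak.
GCLM: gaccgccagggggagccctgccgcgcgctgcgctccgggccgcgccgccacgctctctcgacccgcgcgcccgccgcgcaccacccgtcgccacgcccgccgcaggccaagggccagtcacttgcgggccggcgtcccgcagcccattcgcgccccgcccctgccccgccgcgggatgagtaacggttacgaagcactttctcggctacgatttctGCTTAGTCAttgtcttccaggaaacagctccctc
GCLC: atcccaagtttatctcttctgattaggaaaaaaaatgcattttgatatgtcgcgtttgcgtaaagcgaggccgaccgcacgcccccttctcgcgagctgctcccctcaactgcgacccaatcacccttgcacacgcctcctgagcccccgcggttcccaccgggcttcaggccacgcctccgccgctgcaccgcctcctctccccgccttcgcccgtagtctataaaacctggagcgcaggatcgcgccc
NQO1: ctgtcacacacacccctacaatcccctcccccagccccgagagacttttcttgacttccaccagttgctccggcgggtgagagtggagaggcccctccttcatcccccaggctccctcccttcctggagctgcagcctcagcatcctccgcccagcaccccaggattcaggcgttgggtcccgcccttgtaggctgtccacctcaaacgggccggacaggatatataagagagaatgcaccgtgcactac
AKR1C1: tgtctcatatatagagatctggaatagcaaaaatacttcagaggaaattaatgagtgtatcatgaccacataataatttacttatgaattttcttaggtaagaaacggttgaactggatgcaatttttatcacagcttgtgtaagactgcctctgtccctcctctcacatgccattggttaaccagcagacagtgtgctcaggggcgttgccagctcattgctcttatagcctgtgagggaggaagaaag

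For TXNRD1 and ME1, a stretch of 59 bases is given around each core that lies wholly before the start. These cores lie at −99 from the first TXNRD1 start (chr12:104215655-104215713, plus strand), at −102 from the second (chr12:104286905-104286963, plus strand) and at −137 from the ME1 start (chr6:83431155-83431213, minus strand). Another core at the first TXNRD1 start, at −8, and another in ME1, at 12, reach past the start and are not printed. In ME1 the first 7 capitals are also the AP-1 site.
TXNRD1 first start: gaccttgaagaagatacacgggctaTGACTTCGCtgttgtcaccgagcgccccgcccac
TXNRD1 second start: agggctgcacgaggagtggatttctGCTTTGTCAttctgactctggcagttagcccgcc
ME1: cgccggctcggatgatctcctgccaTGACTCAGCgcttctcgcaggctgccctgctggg

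The core in GCLM, at −34, reads TGACTAAGC on the opposite strand, and that at the second TXNRD1 start reads TGACAAAGC. The AKR1C1 window was AT-rich, with 41% G and C and 3 CpG. The other 7 windows held 53.7 to 80% and 12 to 46 CpG, against medians of 62.3% and 21 over all windows. The AKR1C1 and NQO1 windows carried no peak of any kind, since the NQO1 knockdown peak began further upstream.

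In the deposited peaks, 7 of the 9 genes had H3K27ac at a start in both libraries, NQO1 had it in the knockdown only, and AKR1C1 had none. At a start means a peak within 1 kb of a RefSeq start, or of either end of the gene record for HMOX1 and SLC7A11. Over all protein-coding genes, 61.7% were marked at a start in both libraries and 0.727% in the knockdown only. Of the 7 genes, 4 (GCLC, TXNRD1, HMOX1 and SLC7A11) covered fewer bp in the knockdown and 3 (GCLM, SRXN1 and ME1) covered more. Over all genes covered in both libraries, 76.6% covered fewer. Their median log2 ratio was −0.21, beside −0.17 for all genes, so the members' median lay near that of all genes. A difference of at least 1.5-fold, or cover in 1 library only, was counted as a call. SLC7A11 was the 1 call of less cover (12.0% of 15412 genes with H3K27ac in either library) and NQO1 the 1 call of more (3.75%). Dividing by the knockdown-to-control ratio of all covered length, 0.892 (log2 −0.165), raises every log2 ratio by that amount. In the 10 kb window it ends the SLC7A11 call, at −0.49. The 7 genes keep their directions under that scaling, but the window turns 2 of them: HMOX1 to 0.10 in the gene record alone and 0.02 within 25 kb, and ME1 to −0.002 and −0.10. Over all genes that scaling turns 1855 calls of less and 578 of more into 1179 and 767. After it, 51% of all genes covered in both libraries covered fewer bp, as did 4 of the 7 members.

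**Figure D1:**
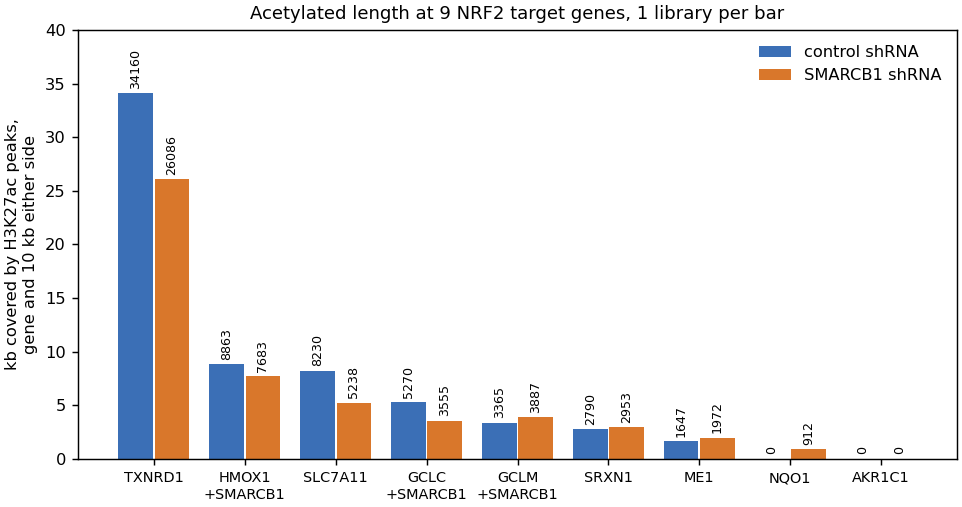
Length covered by H3K27ac peaks (kb) in the gene and 10 kb either side for each of the 9 genes, with control shRNA in blue and SMARCB1 shRNA in orange. Each bar is 1 library with its bp above it, and +SMARCB1 marks the 3 genes with a SMARCB1 peak; TXNRD1 stands far above the rest, NQO1 is covered in the knockdown only and AKR1C1 in neither.

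**Figure D2:**
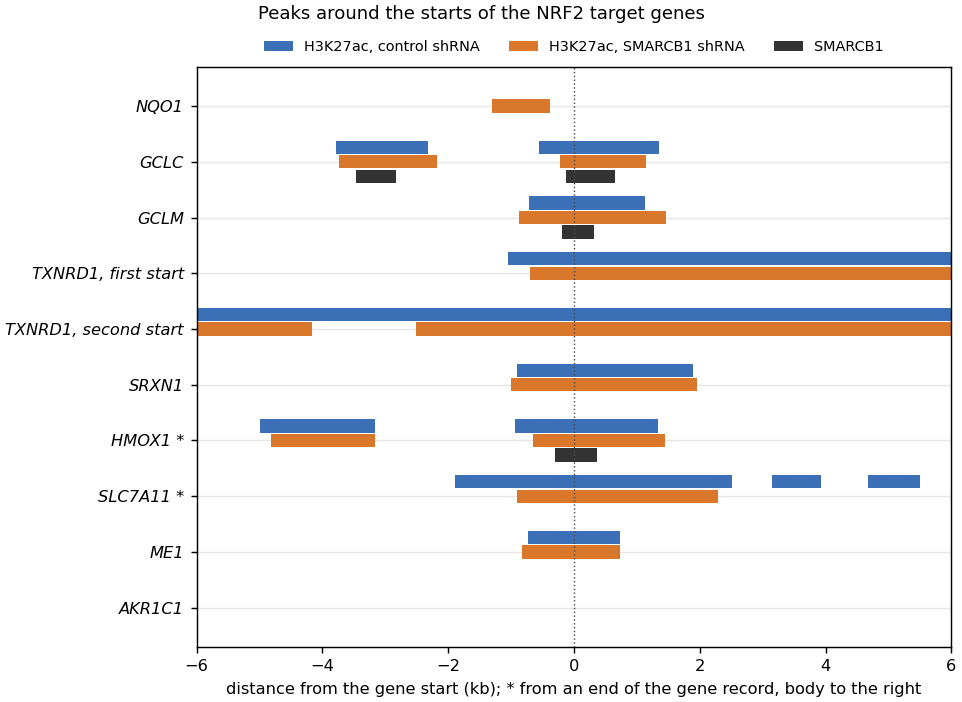
Peaks within 6 kb of each start, drawn along the direction of the gene, with control H3K27ac in blue, knockdown H3K27ac in orange and SMARCB1 in black. Start peaks lie in register in both libraries at 7 genes, the NQO1 knockdown peak stops 387 bp short of the start, and the second TXNRD1 start lies in a domain with a gap of 1657 bp in the knockdown.

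Glutathione synthesis was represented by SLC7A11, GCLC and GCLM. SLC7A11, the cystine importer that supplies cysteine, lies on chromosome 4 from 138164097 to 138242349 and had 8230 bp of H3K27ac with shCon and 5238 bp with shSMARCB1 (log2 ratio −0.65). The peak at the higher end of its record was 4414 bp wide with shCon and 3191 bp with shSMARCB1, with 996 bp missing on the outer side and 227 bp on the gene side. Inside the gene next to it, control peaks of 832 and 785 bp had no knockdown counterpart. A peak about 8 kb outside that end was found in both libraries, at 2950 and 1870 bp in full width. No SMARCB1 peak lay in the window. With only peaks of at least 1000 bp the log2 ratio was −0.41, which no longer passes 1.5-fold. It was −0.87 with peaks under 1000 bp apart merged and −0.85 in the gene record alone. Within 5 kb it was −0.92 and within 25 kb −0.81.

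GCLC, the catalytic subunit of glutamate-cysteine ligase, lies on chromosome 6 from 53497341 to 53545101 and had 5270 bp with shCon and 3555 bp with shSMARCB1 (log2 ratio −0.57). Its start peak was 1904 and 1369 bp wide, shorter in the knockdown by 325 bp upstream and 210 bp into the gene. An upstream peak, 2324 bp from the start in the control, was found in both libraries at 1461 and 1555 bp. GCLC was the gene with a pair of SMARCB1 peaks, 1 in the start peak and 1 in this upstream peak. The control also had 2 peaks of 501 bp without a counterpart, and a peak about 20 kb inside the gene measured 903 and 631 bp. Counted in the gene record alone, GCLC had 2757 and 1774 bp, a log2 ratio of −0.64 that passes 1.5-fold. With only peaks of at least 1000 bp its log2 ratio was −0.20, and after scaling −0.40.

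GCLM, the modifier subunit of the same enzyme, went the other way. It lies on chromosome 1 from 93885199 to 93909430 and had 3365 bp with shCon and 3887 bp with shSMARCB1 (log2 ratio 0.21). Of the 522 bp between the libraries, 501 bp lay at its start, where the peak was 1843 and 2344 bp wide, 157 bp longer upstream and 344 bp longer into the gene in the knockdown. The rest of its cover, 1522 and 1543 bp, sat on the neighbouring gene DNTTIP2. With peaks on other protein-coding genes left out, the log2 ratio at GCLM was 0.35. The subunits of this enzyme thus differed in opposite directions, both by less than 1.5-fold in the full window.

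Among the thioredoxin genes, TXNRD1 carried the most H3K27ac of the 9 genes. TXNRD1, which encodes cytosolic thioredoxin reductase, lies on chromosome 12 from 104215779 to 104350307 and had 34160 bp with shCon and 26086 bp with shSMARCB1 (log2 ratio −0.39). Peaks filled 22.1% of its window of 154529 bp in the control and 16.9% in the knockdown. The shorter window of HMOX1, of 33112 bp, was filled to a larger share, 26.8% and 23.2%. At the first start the peak was 7713 and 6992 bp wide. Over the second start lay a single control domain of 19276 bp, ranked 89 by width among 35307 control peaks. In the knockdown that domain was 2 peaks of 6053 and 9574 bp with a gap of 1657 bp, which together covered 15627 bp or 81.1% of it. The gap lay upstream of the second start, and the start itself stayed inside the wider knockdown peak. Of the narrow peaks elsewhere in the window, 5 control and 2 knockdown peaks, of 501 to 823 bp, had no counterpart. No SMARCB1 peak lay within 10 kb of this gene.

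SRXN1, the sulfiredoxin that restores overoxidised peroxiredoxins, had 1 peak in each library and nothing else. On chromosome 20 from 646615 to 653200, the peak over its start was 2790 bp with shCon and 2953 bp with shSMARCB1 (log2 ratio 0.08), with edges that moved outward by 68 and 95 bp. It had no SMARCB1 peak. Sulfiredoxin's promoter was thus covered end to end in both libraries.

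NQO1, the quinone reductase that serves as a standard readout of NRF2 activity, lies on chromosome 16 from 69709401 to 69726560. Its window had 0 bp with shCon and 912 bp with shSMARCB1. That cover was 1 peak, from 69726947 to 69727858, which began 387 bp upstream of the NQO1 start and lay in the divergent non-coding gene NQO1-DT. The nearest control peak was 27.1 kb from the start and the nearest SMARCB1 peak 388 kb. At percentile 27.7 of the widths in its list, the NQO1 peak was narrow. Of all knockdown peaks under 1000 bp, 33.8% had no control counterpart, as had 3 of the 7 in the members' windows. The call is lost when only peaks of at least 1000 bp count, or when the window is limited to the gene record. A peak absent from a list says that the caller's thresholds were not reached, not that the mark is absent.

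HMOX1, the haem oxygenase that releases iron and biliverdin, lies on chromosome 22 from 35381096 to 35394207 and had 8863 bp with shCon and 7683 bp with shSMARCB1 (log2 ratio −0.21). The peak at the lower end of its record, where the authors class the SMARCB1 peak as promoter-TSS, was 2274 and 2087 bp wide. Outside that end lay a pair of peaks found in both libraries, of 1821 and 1652 bp at 3 kb and of 1848 and 1785 bp at 8 kb. Beyond the other end, a peak on MCM5 measured 2281 and 2159 bp, and another of 639 bp on MCM5 was in the control only. Without those, HMOX1 had 5943 and 5524 bp (log2 ratio −0.10). HMOX1 thus kept every peak of its own side in the knockdown, each slightly narrower.

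ME1, the cytosolic malic enzyme that makes NADPH, lies on chromosome 6 from 83210402 to 83431051 and had 1647 bp with shCon and 1972 bp with shSMARCB1 (log2 ratio 0.26). Only its start peak, of 1465 and 1559 bp, belonged to the gene. The rest was the edge of a peak on RWDD2A that reached 182 and 413 bp into the window. With that peak left out the log2 ratio was 0.09. The long gene body, of 220650 bp, held no other peak in either library.

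AKR1C1, an aldo-keto reductase of steroids and carbonyl compounds, lies on chromosome 10 from 4963415 to 4983283 and had 0 bp in every list. Its nearest H3K27ac peak was 96.5 kb from the start in the control and 96.6 kb in the knockdown, and its nearest SMARCB1 peak 703 kb. The neighbours AKR1C2 and AKR1C3 had none within 10 kb either. AKR1C genes are close paralogs, and reads that match several copies can be lost in mapping, so their empty windows are uncertain. Over all protein-coding genes, 22.2% had no H3K27ac within 10 kb in either library.

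**Figure D3:**
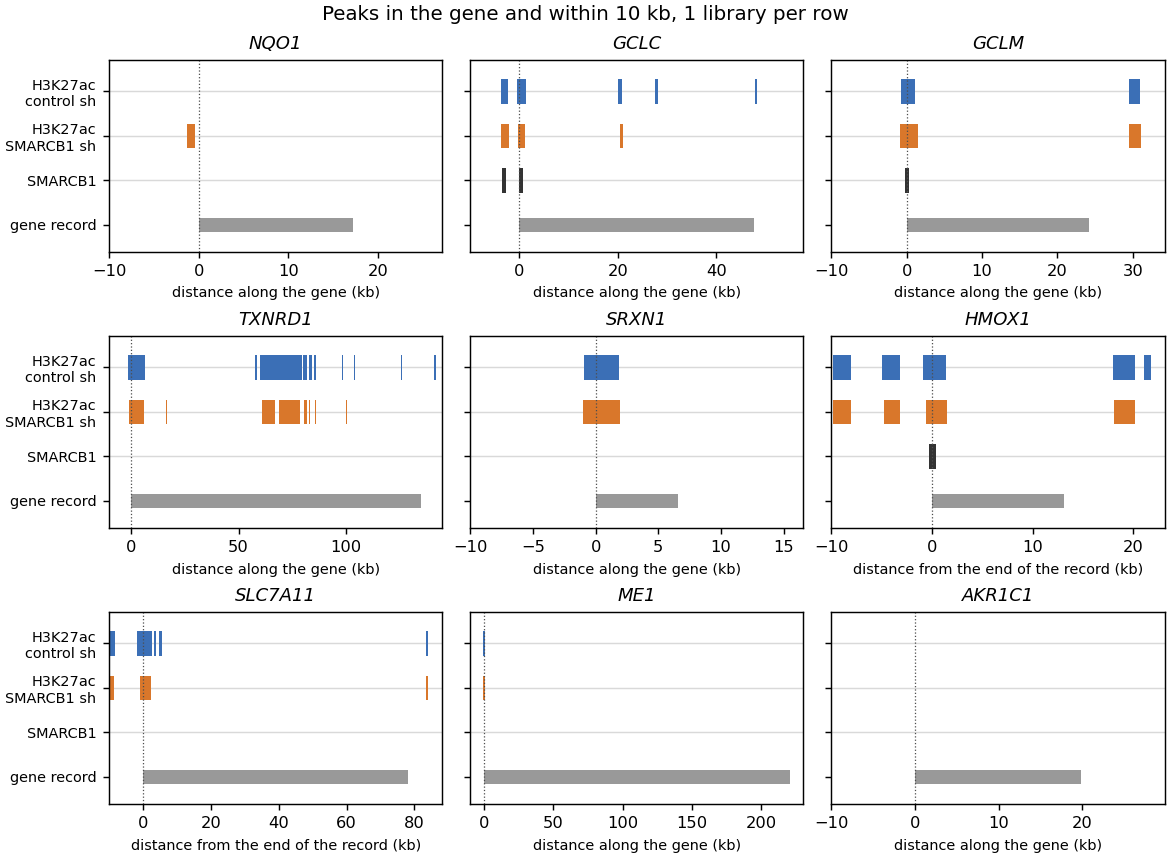
All peaks in each gene (grey bar) and 10 kb either side, by distance in kb from the first start or, for HMOX1 and SLC7A11, from the marked end of the record, with 1 library per row. Wide peaks recur in both H3K27ac rows, while the thin bars inside TXNRD1, GCLC and SLC7A11 are mostly found in 1 library.

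Peak by peak, the difference between libraries lay in narrow regions and in widths. The 9 windows held 30 control and 24 knockdown H3K27ac peaks. All 17 control and all 17 knockdown peaks of at least 1000 bp had a counterpart in the other library. The share of all peaks of that width with a counterpart was not counted, so these counts mark no trait of the members. Of 13 control peaks under 1000 bp, 10 had none, 5 in TXNRD1, 2 each in GCLC and SLC7A11 and 1 at HMOX1. Genome-wide, 52.4% of control peaks under 1000 bp had no knockdown counterpart. The members' single-library peaks were at most 832 bp with shCon and 912 bp with shSMARCB1.

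SMARCB1 peaks lay at GCLC, GCLM and HMOX1, or 3 of the 9 genes, both within 10 kb (23.3% of all protein-coding genes) and at the start (12.1%). There were 4 such peaks, and all 4 overlapped H3K27ac in both libraries. The share of all SMARCB1 peaks that do so was not counted. The authors gave the peak at the GCLC start (773 bp, classed as 5' UTR) a value of 21.1, rank 488 of 4453, in a unit that no source used here states. The upstream GCLC peak (638 bp, intergenic) had 18.5 and rank 687, the HMOX1 peak (665 bp, promoter-TSS) 15.3 and rank 1106, and the GCLM peak (500 bp, 5' UTR) 13.2 and rank 1571. With peaks of a value above the list median of 11.6, the same 3 genes were marked. The H3K27ac peaks over them differed in direction: the GCLC start peak was 1904 and 1369 bp wide in control and knockdown, its upstream peak 1461 and 1555 bp, the HMOX1 peak 2274 and 2087 bp and the GCLM peak 1843 and 2344 bp. SLC7A11, TXNRD1, SRXN1 and ME1, also covered by H3K27ac in both libraries, had no SMARCB1 peak within 10 kb. Any relation between SMARCB1 peaks and covered length was not tested.

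**Figure D4:**
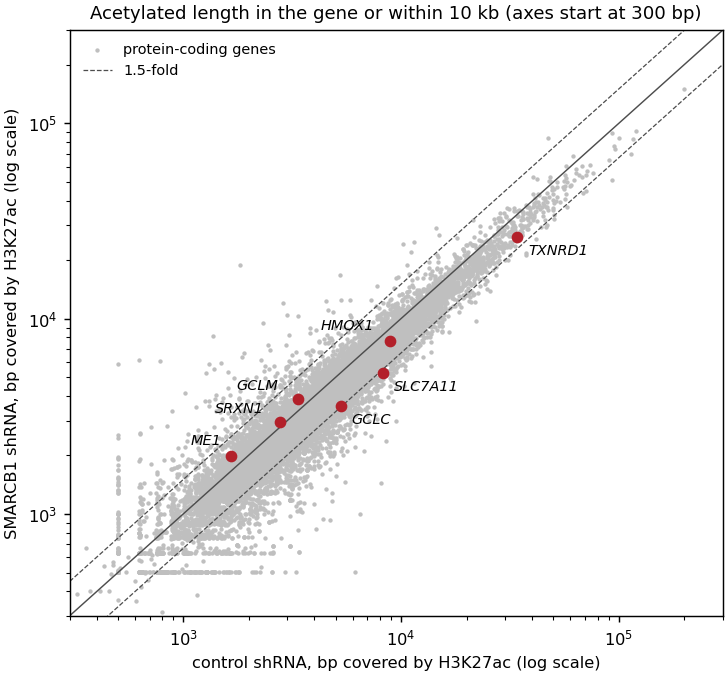
H3K27ac covered length (bp, both axes log) in the gene and 10 kb either side, control against knockdown, for protein-coding genes covered in both libraries (grey) and the 7 members so covered (red); 35 genes lie off the axes, which start at 300 bp. Of the members, SLC7A11 lies past the lower 1.5-fold line and the other 6 lie between the dashed lines, within the grey cloud.

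Another 54 genes of the pathway were counted in the same way. Of these, 49 had H3K27ac in both windows, 39 of them with fewer bp in the knockdown (79.6%, beside 76.6% of all genes), and their median log2 ratio was −0.17. Less cover by at least 1.5-fold was found for 4 genes (12.0% of all genes tested) and more for none (3.75%). The 4 were NFE2L1, a relative of NRF2, GSR, glutathione reductase, EPHX1, microsomal epoxide hydrolase, and ABCG2, a drug efflux pump. NFE2L1 had 13686 bp with shCon and 5725 bp with shSMARCB1, the largest log2 difference of the list at −1.26. GSR had 1965 and 1287 bp (−0.61), EPHX1 2093 and 1339 bp (−0.64) and ABCG2 3826 and 2299 bp (−0.73). After scaling by all covered length, the call at NFE2L1 alone was left, and 25 of the 49 had fewer bp (51%, as over all genes). H3K27ac was at a start in both libraries for 46 of the 54 genes (61.7% of all protein-coding genes). SMARCB1 peaks lay within 10 kb of 24 (23.3% of all) and at the start of 20 (12.1%). The shares over all genes include the 22.2% without H3K27ac in either library, whereas 49 of the 54 had it.

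All 10 regulators were marked at a start in both libraries. NFE2L2 had 13760 bp with shCon and 10924 bp with shSMARCB1 (log2 ratio −0.33), with a SMARCB1 peak of 628 bp at its start. KEAP1, its inhibitor, had 3139 and 2437 bp (−0.36) and no SMARCB1 peak. BACH1, the competing repressor, had 10218 and 10266 bp (0.01). Among the small MAF partners, MAFF had 10095 and 9196 bp (−0.14, above 0 after scaling), MAFK 7486 and 6438 bp (−0.22), and MAFG 9529 and 11321 bp (0.25) with 1140 bp of SMARCB1 peaks. All 7 glutathione genes with the mark had fewer bp in the knockdown, as had 76.6% of all genes, though GSS and GSTP1 turn to more after scaling and GSR alone passed 1.5-fold. Among genes of haem and iron handling, 3 of 7 had fewer (FECH, SLC40A1 and SLC48A1, the last turning to more after scaling), and FTL, the ferritin light chain, had 7855 and 9161 bp.

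**Figure D5:**
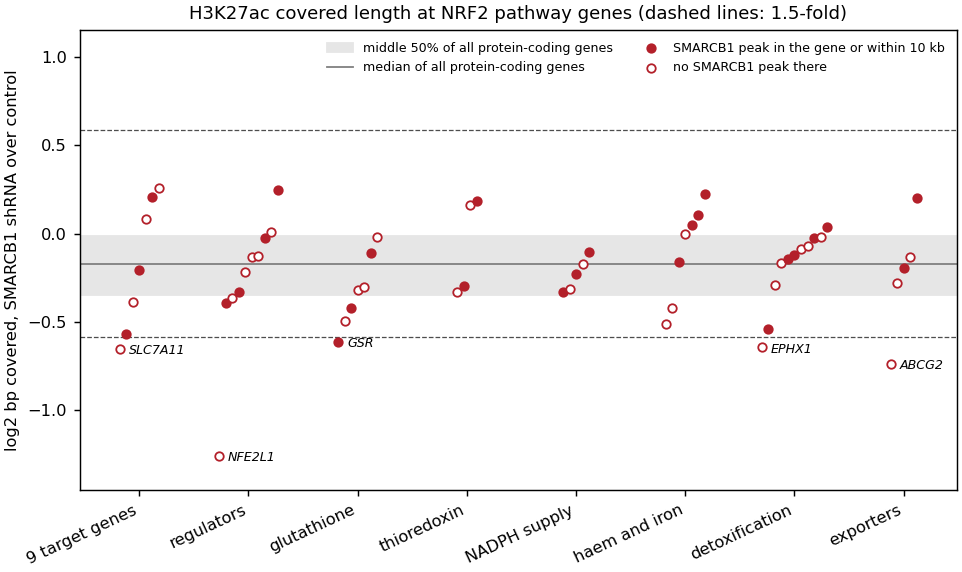
Log2 ratio of H3K27ac covered length, knockdown over control, for each pathway gene covered in both libraries, by role; filled points have a SMARCB1 peak in the gene or within 10 kb. The grey band is the middle 50% of all protein-coding genes and the dashed lines are 1.5-fold; SLC7A11, NFE2L1, GSR, EPHX1 and ABCG2 lie below the lower line and none lies above the upper.

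Likeness to the called members was measured as the Euclidean distance in log2(bp + 500) over the 2 H3K27ac libraries, among genes with the same call. Nearest to NQO1, of 577 genes, were JCAD with 916 bp in the knockdown, PECAM1, an endothelial adhesion molecule, with 900 bp and EPGN, an EGF family ligand, with 927 bp, each with 0 bp in the control. Nearest to SLC7A11, of 1854 genes, were DUS4L-BCAP29 (8288 and 5270 bp), CHCHD3 (8245 and 5327 bp) and RAP1B (8093 and 5227 bp).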

How the data were processed

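H3K27ac was measured with each shRNA and SMARCB1 in 1 further library, grouped by the submitters' titles; the input library was not analysed here. The submitters' processing notes name Bowtie2, HOMER and hg38 without versions. Per the file headers, each H3K27ac list was called with HOMER in histone style against the same control input, with peak size 500 bp, minimum distance 1000 bp, 4-fold over input, and stitching; fragment lengths were 190 and 158 bp. A deeper library can bring more narrow or wider regions past such thresholds, which was not tested. No source used here gives the SMARCB1 caller's settings. The deposited values are peak positions; the H3K27ac lists carry no peak heights.

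Only autosomal and X peaks were used, without 3 peaks of each H3K27ac list. Overlap meant 1 base. Covered length was computed in Python 3.11.15 with pandas 2.3.3 and NumPy 2.4.6, tested on simulated data and checked with bedtools 2.31.1 for the 9 genes; figures were drawn with matplotlib 3.10.9. Gene records came from RefSeq (GRCh38.p14, the chromosomes of hg38), in which all 86 listed symbols matched. Starts were given for 15812 genes; for the rest either end of the record was used. The members, lists and tests were chosen with earlier results of these data known. Named are all members, 6 regulators, other pathway genes past 1.5-fold, and the 3 genes nearest each called member. Also named are NQO1-DT and the other protein-coding genes whose records lie under a member's peak. Further records under members' peaks, such as TXNRD1-AS1 and GCLC-AS1, are not described. Other names illustrate a list and were chosen after their values were seen.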

Additional observations from a re-analysis of the deposited data

How the results depend on the processing

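The counts were recomputed with other peaks, windows, folds and scalings. With 1 library a group and no peak heights, no alternative stands in for a replicate.

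The members with less cover in the knockdown, 1 as reported, numbered 0 with peaks of at least 1000 bp, with a fold of 2 or after scaling by all covered length, 2 in the gene record alone and 3 with a fold of 1.25. Those with more cover, 1 as reported, numbered 0 with peaks of at least 1000 bp or in the gene record alone. Members marked at a start in 1 library only went from 1 to 0 with peaks of at least 1000 bp and in the window from 250 before to 50 after the start, which leaves out HMOX1 and SLC7A11. Over all genes, less cover was called for 4464 at a fold of 1.25, 785 at 2 and 1179 after scaling, and more cover for 1020 and 361 at those folds. For the other pathway genes, less cover was called for 14 at a fold of 1.25, 1 at 2, 1 after scaling and 8 in the gene record alone, where more cover was called for 1. No other count moved by over 1.5 times, though 4 members had a SMARCB1 peak within 25 kb, beside 3 within 10 kb. The share of all genes with a SMARCB1 peak within 25 kb was not counted. The members' median log2 ratio ranged from −0.34 with peaks under 1000 bp apart merged to −0.002 in the gene record alone. HMOX1 and ME1 changed direction with the window, HMOX1 to 0.10 in the gene record alone and 0.02 within 25 kb, and ME1 to −0.002 and −0.10. Leaving out peaks on other protein-coding genes was chosen after seeing the data and changed no call.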

Other observations

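At NFE2L1, the pathway gene with the largest log2 difference, the start peak was 6136 bp wide with shCon and 3690 bp with shSMARCB1. In both libraries that peak also lay on the records of COPZ2 and NFE2L1-DT, so its cover is not of NFE2L1 alone. Control peaks of 1645, 973, 756 and 501 bp inside the gene had no knockdown counterpart, nor had a peak of 648 bp beyond it. The peak of 1645 bp is wider than any single-library peak of the 9 target genes. The last peak of the window, of 3027 and 2035 bp, touches CBX1 in the control.

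At ABCG2 and EPHX1 the peaks at a start, and at GSR the peak at 1 end of its record, were found in both libraries, at 763 and 882 bp, 1462 and 1339 bp, and 1464 and 1287 bp. Each of these genes lacked 1 narrow control peak in the knockdown, of 767, 631 and 501 bp. At ABCG2 a further peak in the gene was 2296 and 1417 bp wide.

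At NFE2L2 the broad peak inside the gene, 6646 bp in the control, was 2 peaks of 993 and 5290 bp in the knockdown with a stretch between them uncovered, and the start peak was 5061 and 4140 bp wide. A control peak of 1051 bp inside the gene had no knockdown counterpart, nor had another of 501 bp beyond it.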
